A study of Mus musculus with 2 samples.

Results

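The genes described here are 37 members of the PI3K, Akt, mTOR and Foxo pathway, listed by name as PI3K subunits, lipid phosphatases, Akt kinases, TSC and mTOR genes, and forkhead factors with some of their targets. Expression was measured by microarray in CD3+CD4+ T cells sorted by FACS from the pancreatic draining lymph nodes (PLN) of BDC mice aged 8 weeks, which the labels name BDC2.4. BDC mice are NOD mice that carry a transgenic TCR recognizing a β cell antigen, so these cells largely share a single receptor. One array comes from mice given ND αCD4 (clone YTS177), a nondepleting antibody, and one from mice given isotype control Ab (clone 2A3), both rat IgG2a, at 1 mg by the labels and 48 hours after treatment. Each array holds cells of 1 sort from pooled mice, and over all experiments of the study the methods give 2A3 at higher doses than YTS177. The labels list age and treatment under exchanged headings. With 1 array per condition there is no replicate, so none of the differences has an error or a test, and precision is limited by the number of arrays. In bulk RNA, fewer cells of a type and less RNA per cell cannot be told apart.

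Of the 37 genes, 36 had a probe set annotated with that gene alone, out of 19938 genes so measured on the array. *Rps6kb1*, a kinase that mTORC1 activates, had none and was not analysed here. Detection required a log2 signal above background in 1 array or both, with background set per array at the 95th percentile over receptor genes of the nose (7.64 for isotype control, 7.56 for ND αCD4). This held for 13222 genes and for 35 of the 36 measured members, all 35 of them in both arrays, so no member passed through one condition alone. *Deptor*, an inhibitor of mTOR, stayed below background in both arrays (7.44 and 7.36). The log2 ratio is the ND αCD4 signal minus that of the isotype control, and counts are given at 1.5-fold and at 1.2-fold. Where a pair of signals follows a gene, the isotype control comes first. Levels of different members were not compared, since each gene has its own probes. Only for marker lists were signals summed, including genes below background, and the highest genes named.

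PI3K is a lipid kinase that T cells switch on downstream of the TCR, costimulatory receptors and cytokine receptors. Its product recruits PDK1 and Akt to the membrane, and Akt then relieves the TSC brake on Rheb and mTORC1 and drives Foxo factors out of the nucleus. Lipid phosphatases and Pik3ip1 oppose the kinase, and nuclear Foxo1 maintains genes of quiescence, survival and recirculation in resting T cells. Most of these steps are set by phosphorylation and by location in the cell, which an mRNA array does not measure.

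Promoter sequences of RefSeq (GRCm38.p6), each spanning 250 bases before to 50 bases after a gene start, were matched by symbol for 34 of the 37 genes. Shown first are the 100 bases just before the start of the 5 members that were at least 1.2-fold higher after ND αCD4, on the gene's strand, since these make up the count of higher members given below. The motifs were searched in every window. Capitals mark the insulin response core TTGTTTT or its reverse complement AAAACAA, a sequence known to bind Foxo factors that was added to the search after the values were seen, and the Foxo core GTAAACA or its reverse complement TGTTTAC. *Pik3cd* has several starts in the table, and the window that held a match was chosen for printing.
Pik3r5 (chr11:68432025-68432124, + strand): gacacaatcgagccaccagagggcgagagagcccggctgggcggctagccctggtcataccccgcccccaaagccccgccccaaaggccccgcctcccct
Irs2 (chr8:11008930-11009029, - strand): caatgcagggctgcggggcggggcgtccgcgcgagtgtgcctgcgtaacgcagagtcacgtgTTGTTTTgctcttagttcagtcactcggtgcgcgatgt
Tob1 (chr11:94211354-94211453, + strand): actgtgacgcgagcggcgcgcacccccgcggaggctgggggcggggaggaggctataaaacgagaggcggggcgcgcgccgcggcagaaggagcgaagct
Pik3ip1 (chr11:3330631-3330730, + strand): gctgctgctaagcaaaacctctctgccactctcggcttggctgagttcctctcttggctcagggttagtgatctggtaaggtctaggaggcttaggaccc
Pik3cd (chr4:149698709-149698808, - strand): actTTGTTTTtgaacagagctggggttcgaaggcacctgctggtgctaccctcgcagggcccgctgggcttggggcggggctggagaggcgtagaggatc

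The Foxo core was in none of the windows of these 5 genes and was found in 3 other members. The 30 bases around each match are shown, because one of the genes was higher, one lower and one nearly equal after ND αCD4.
Sesn1 (chr10:41810585-41810614, + strand): gaaccttctacTGTTTACcagccttttggg
Pik3cg (chr12:32208544-32208573, - strand): tttttcctaaaGTAAACAaatgatcctcct
Akt1 (chr12:112675027-112675056, - strand): atctaccctctTGTTTACactcctggtgaa
The match in *Sesn1* lies just after the gene start, with its first base at position 23, and those in *Pik3cg* and *Akt1* lie before it. Over whole windows, the Foxo core was in 3 of 50 member promoters (6%) and in 3.65% of all 32851 promoters of the table. The insulin response core was in 6 of 50 (12%) and in 9.02% of all, with matches in *Akt1*, *Akt2*, *Ccng2*, *Irs2*, *Pik3cd* and *Sesn1*. The search covered both strands, no match of one motif overlapped a match of the other, and a match describes letters only, not binding.

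Most genes of the pathway had a similar signal in both arrays, while a few stood apart. Above 0 lay 27 of the 35 detected members (77.1%) and below 0 lay 8, beside 46.7% and 52.7% of all detected genes. The median log2 ratio was 0.09, beside -0.01 over all detected genes. None reached 1.5-fold higher (0.212% of all detected genes did) or 1.5-fold lower (1.01%). At 1.2-fold, 5 members (14.3%) were higher, beside 2.85% of all detected genes, and 1 member (2.86%) was lower, beside 5.79%. The higher ones were *Pik3r5*, *Irs2*, *Tob1*, *Pik3ip1* and *Pik3cd*, and the lower one was *Pik3r3*. The values of *Pik3r5*, *Irs2*, *Tob1*, *Pik3ip1*, *Gadd45a* and *Foxo1* were known when the members were chosen. Without these 6, 1 of 29 members (3.45%) was at least 1.2-fold higher, which is near the share of all genes, and 21 of 29 (72.4%) had a log2 ratio above 0 with a median of 0.04.

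**Figure D1:**
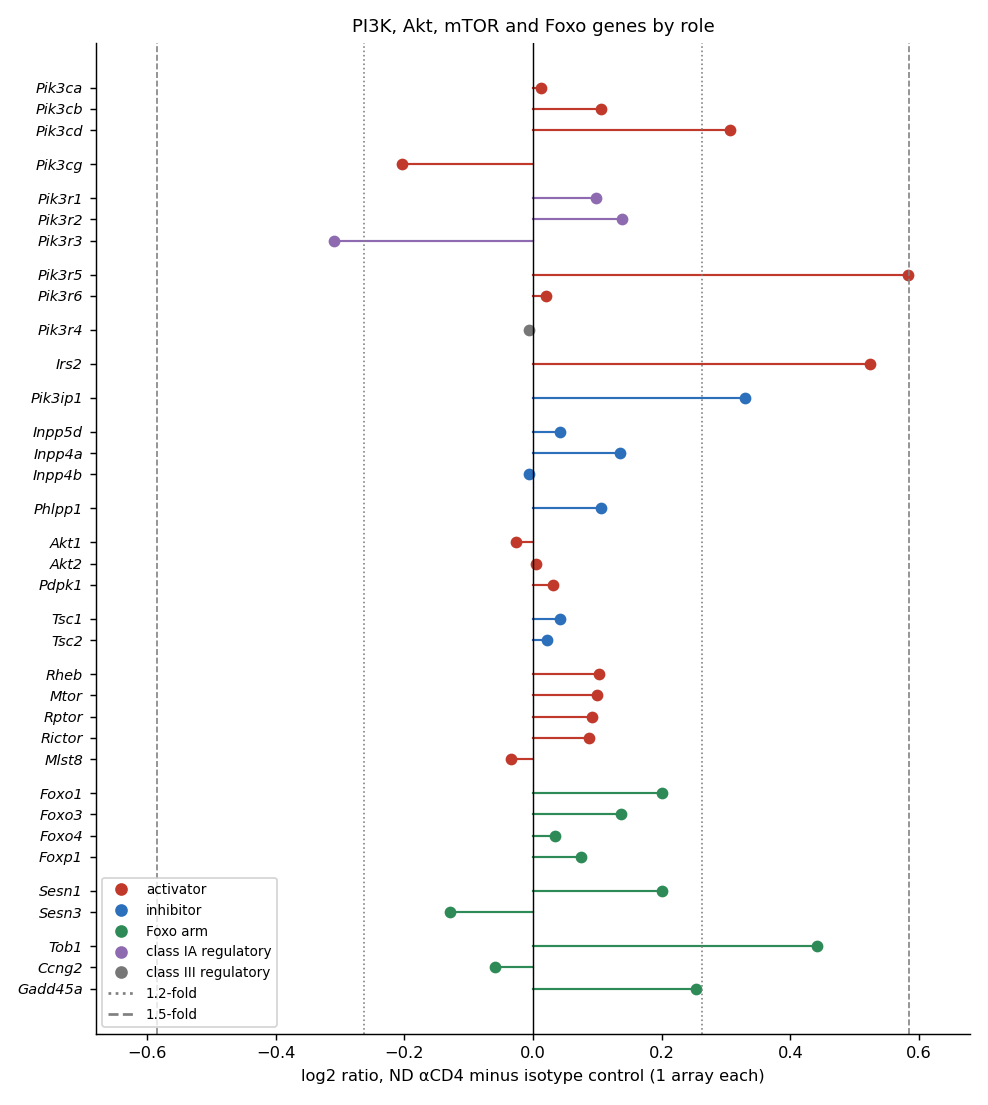
Log2 ratio (ND αCD4 minus isotype control, 1 array each) of the 35 detected genes, grouped by role and coloured by class, with 1.2-fold as dotted and 1.5-fold as dashed lines. Pik3r5 lies at 0.58, just short of the 1.5-fold line, Pik3r3 at -0.31, and the Akt and TSC genes lie within 0.05 of 0.

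Of the 10 PI3K subunit genes, *Pik3r5* and *Pik3cd* were at least 1.2-fold higher after ND αCD4 and *Pik3r3* was at least 1.2-fold lower. PI3Kγ consists of the catalytic subunit encoded by *Pik3cg* and a regulatory subunit encoded by *Pik3r5* or *Pik3r6*, and it acts mainly downstream of chemokine and other G protein–coupled receptors. *Pik3r5* had a log2 signal of 11.12 with isotype control and 11.70 with ND αCD4. Its log2 ratio of 0.58 fell just short of 1.5-fold (0.585) and ranked 30 from the highest among the 13222 detected genes. *Pik3cg* was 1.15-fold lower (11.22 and 11.01), and *Pik3r6* was nearly equal in the arrays (8.36 and 8.38). *Pik3r5* and *Pik3r6* are next to each other on chromosome 11, with 0 protein-coding genes between them in RefSeq, and their log2 ratios differed by 0.56. Those of *Pik3r5* and its partner *Pik3cg* differed by 0.79.

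Of the class IA catalytic subunits, which pair with the regulatory subunits of *Pik3r1* to *Pik3r3* downstream of the TCR and CD28, *Pik3cd* stood apart. *Pik3cd*, which encodes the leukocyte subunit PI3Kδ, was 1.24-fold higher after ND αCD4 (11.83 and 12.13). *Pik3ca* (11.32 and 11.33) and *Pik3cb* (8.64 and 8.74), the broadly expressed catalytic subunits, had log2 ratios of 0.01 and 0.11. Among the regulatory subunits, which both stabilize and restrain the catalytic ones, *Pik3r1* had a log2 ratio of 0.10 (12.06 and 12.16) and *Pik3r2* of 0.14 (9.31 and 9.45). *Pik3r3* was 1.24-fold lower (8.28 and 7.97), close to background in the ND αCD4 array, and ranked 556 from the lowest of the detected genes. *Pik3r4*, a regulatory subunit of the class III kinase of autophagy and vesicle traffic, was at 10.27 in both arrays. Over all 10 subunit genes, 7 had a log2 ratio above 0 and 3 below 0, beside 46.7% and 52.7% of all detected genes. The subunit median was 0.06.

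The adaptor gene *Irs2*, whose product links insulin, IGF and cytokine receptors to PI3K and which is itself a Foxo target, had the next highest log2 ratio. Its signal was 9.11 with isotype control and 9.63 with ND αCD4, which is 1.44-fold higher and ranked 42 from the highest. Its promoter window printed above holds the insulin response core, starting at position -38. This gene counts as an activator by its product and as a Foxo target by its regulation.

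**Figure D2:**
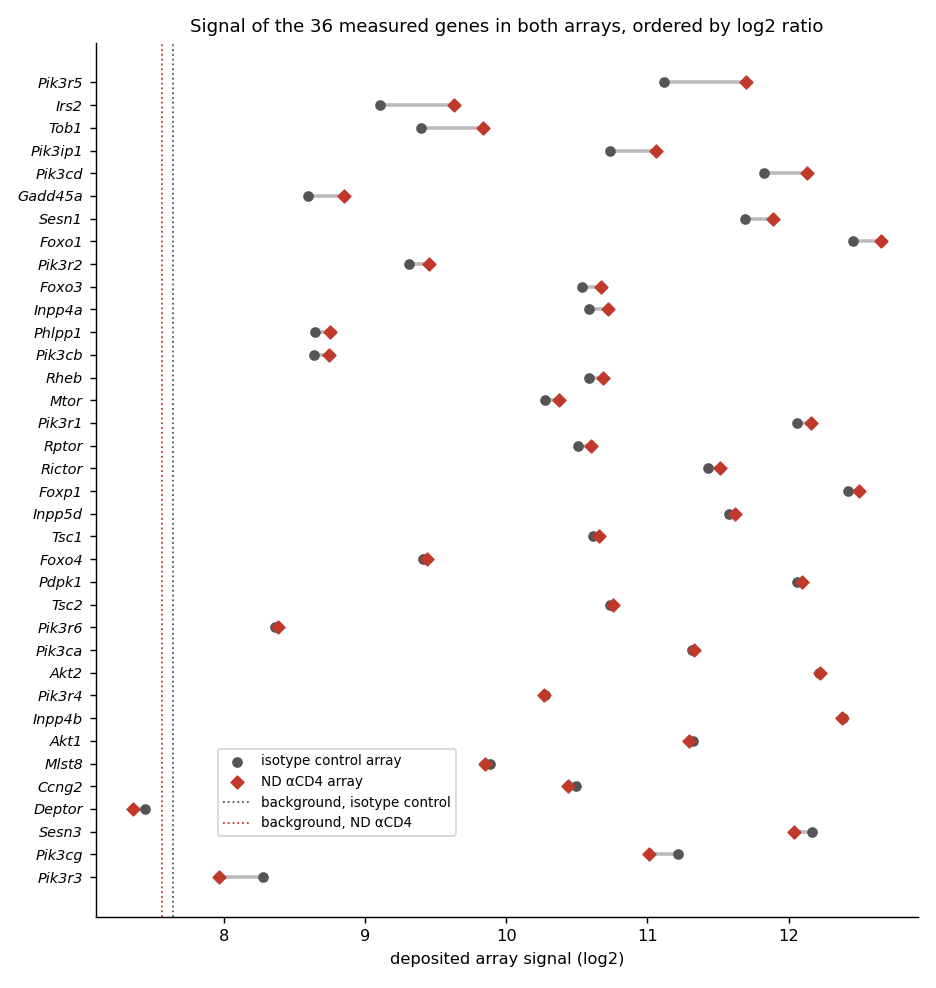
Deposited array signal (log2) of the 36 measured genes in the isotype control array (gray circles) and the ND αCD4 array (red diamonds), ordered by log2 ratio, with each array's background as a dotted line. Pik3r5 moves from 11.12 to 11.70 and Pik3r3 from 8.28 to 7.97, and Deptor alone lies below background; horizontal positions of different genes are not comparable.

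Among the inhibitors, *Pik3ip1* was the only one past 1.2-fold. Its product is a membrane protein that binds the catalytic subunit of PI3K and holds it back in resting T cells. The signal was 10.73 with isotype control and 11.06 with ND αCD4, or 1.26-fold higher. The phosphatase genes differed less. *Inpp5d*, which encodes SHIP1, a phosphatase of the PI3K product, had a log2 ratio of 0.04 (11.58 and 11.62). *Inpp4a*, which removes a further phosphate, was at 0.14 (10.58 and 10.72), and *Inpp4b*, its close relative, was at 12.38 in both arrays. *Phlpp1*, a phosphatase that inactivates Akt, was at 0.11 (8.65 and 8.75).

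The core of the cascade was nearly level. *Akt1* had a log2 ratio of -0.03 (11.32 and 11.30), and *Pdpk1*, which encodes the kinase that activates Akt, one of 0.03 (12.06 and 12.09). *Akt2* was measured by 2 probe sets, whose log2 ratios were 0.01 and -0.01. The genes of the TSC complex, which keeps Rheb inactive, were at 0.04 for *Tsc1* (10.61 and 10.65) and 0.02 for *Tsc2* (10.73 and 10.75). *Rheb*, the GTPase that turns mTORC1 on, was at 0.10 (10.59 and 10.69). *Mtor*, the kinase of both complexes, was at 0.10 (10.28 and 10.37). *Rptor*, the defining subunit of mTORC1 (10.51 and 10.60), and *Rictor*, that of mTORC2 (11.43 and 11.52), were at 0.09 each. *Mlst8*, a subunit of both, was at -0.03 (9.88 and 9.85). Over these 10 genes of the Akt and mTOR core, the log2 ratios ran from -0.03 to 0.10 with a median of 0.04, and none passed 1.2-fold.

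The log2 ratios of activators and inhibitors overlapped. Among the 15 detected activators the median was 0.09, 12 lay above 0 and 3 below, and values ran from -0.20 to 0.58. Among the 7 detected inhibitors the median was 0.04, 6 lay above 0 and 1 below, and values ran from -0.01 to 0.33, within the range of the activators. Over all detected genes, 46.7% lay above 0 and 52.7% below 0. The inhibitor median minus the activator median was -0.04, and 0.0105 without the 6 members whose values were known. Past 1.2-fold, 3 of 15 activators and 1 of 7 inhibitors were higher and none of either was lower, beside 2.85% higher and 5.79% lower among all detected genes. Without the members whose values were known, 1 of 13 activators (*Pik3cd*) and 0 of 6 inhibitors were higher. The class IA regulatory subunits and *Pik3r4* were placed in neither class.

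**Figure D3:**
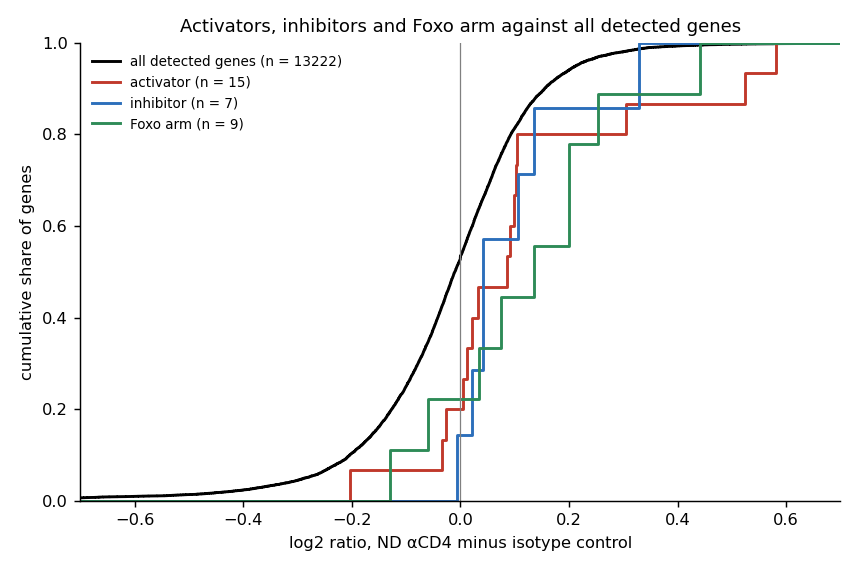
Cumulative share of genes (vertical axis) by log2 ratio (horizontal axis) for the 15 activators, 7 inhibitors, 9 genes of the Foxo arm and all 13222 detected genes. The curves of activators and inhibitors cross, with medians of 0.09 and 0.04, and that of the Foxo arm has its median at 0.14.

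The Foxo arm held 9 genes, of which 7 had a log2 ratio above 0 and 2 below 0. The shares over all detected genes were 46.7% and 52.7%. The median of the Foxo arm was 0.14, and 0.055 without *Foxo1*, *Tob1* and *Gadd45a*, whose values were known. All 4 forkhead genes were above 0. *Foxo1* was 1.15-fold higher (12.46 and 12.66), and *Foxo3*, its relative, was at a log2 ratio of 0.14 (10.54 and 10.67). *Foxo4* was at 0.03 (9.41 and 9.44). *Foxp1*, a forkhead factor needed for naive T cell quiescence, was at 0.08 (12.42 and 12.50). The genes described as Foxo targets diverged more. *Tob1*, which restrains T cell proliferation, was 1.36-fold higher (9.40 and 9.84) and ranked 70 from the highest. *Gadd45a*, a growth arrest gene, was 1.19-fold higher (8.60 and 8.85), just under the smaller rule. *Sesn1*, a stress-induced protein that restrains mTORC1, was 1.15-fold higher (11.69 and 11.89), while its relative *Sesn3* was 1.09-fold lower (12.17 and 12.04). *Ccng2*, an atypical cyclin linked to cell cycle arrest, was at -0.06 (10.50 and 10.44). The study displays *Foxo1* from these samples, so its direction here is not independent evidence.

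Other genes of the pathway were taken from lists drawn up by function. Of 26 detected further PI3K and Akt genes, 19 (73.1%) had a log2 ratio above 0 and 7 below 0 (median 0.08), beside 46.7% above 0 among all detected genes. At 1.2-fold, 1 (3.85%) was higher and 1 (3.85%) lower, near the shares of 2.85% and 5.79% over all detected genes. *Gab3*, a docking adaptor, was 1.32-fold higher (9.47 and 9.87), and *Icos*, a costimulatory receptor that signals through PI3K, was 1.21-fold lower (11.72 and 11.45). *Sit1*, an adaptor that dampens TCR signaling, was at 0.25, and *Sgk1*, a kinase that also phosphorylates Foxo factors, at 0.22.

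Of 34 detected nutrient and energy sensors of mTORC1, 17 lay above 0 and 16 below 0, with a median of 0.00. At 1.2-fold, 4 (11.8%) were lower and none higher, beside 5.79% and 2.85% of all detected genes. *Ddit4* was the lowest of them and the only one past 1.5-fold. It encodes REDD1, a stress-induced inhibitor that acts through the TSC complex, and its signal was 11.77 with isotype control and 11.06 with ND αCD4, or 1.63-fold lower. *Tbc1d7*, the third subunit of the TSC complex, was 1.39-fold lower (9.08 and 8.60). *Fnip2*, a partner of folliculin, had a log2 ratio of -0.29, and *Seh1l*, a subunit of both an mTORC1 regulator and the nuclear pore, one of -0.26, at the limit of 1.2-fold itself. *Sesn1*, which also restrains mTORC1, had the opposite sign to *Ddit4*, at 0.20 and short of 1.2-fold. Its relative *Sesn3* had the same sign as *Ddit4* (-0.13).

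Among 15 mTORC1 output genes, 9 were above 0 and 6 below 0 (median 0.02). At 1.2-fold, 1 (6.67%) was higher and 1 (6.67%) lower, beside 2.85% and 5.79% of all detected genes. *Tfeb*, a transcription factor of lysosome genes held in the cytoplasm by mTORC1, was 1.25-fold higher (9.22 and 9.54). *Eif4e*, the cap-binding translation factor, was 1.23-fold lower (10.66 and 10.36), while *Maf1*, a repressor of RNA polymerase III, was at 0.20 and *Eif4ebp2*, a repressor of eIF4E, at 0.18. Of 24 detected further Foxo targets, 16 were above 0 and 8 below 0 (median 0.09), 6 (25%) were at least 1.2-fold higher and none was lower, beside 2.85% and 5.79% of all detected genes. *Klf6*, a zinc finger factor induced by Foxo1 and also by stress, was 1.62-fold higher (10.66 and 11.35), and *Il7r*, the IL-7 receptor chain, 1.52-fold higher (11.54 and 12.14). *Klf2*, a factor of T cell egress, and *S1pr1*, the receptor of the egress signal, were at 0.50 and 0.41. The study displays *Il7r*, *Klf2* and *S1pr1* from these samples, so the list is not independent evidence of its direction.

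**Figure D4:**
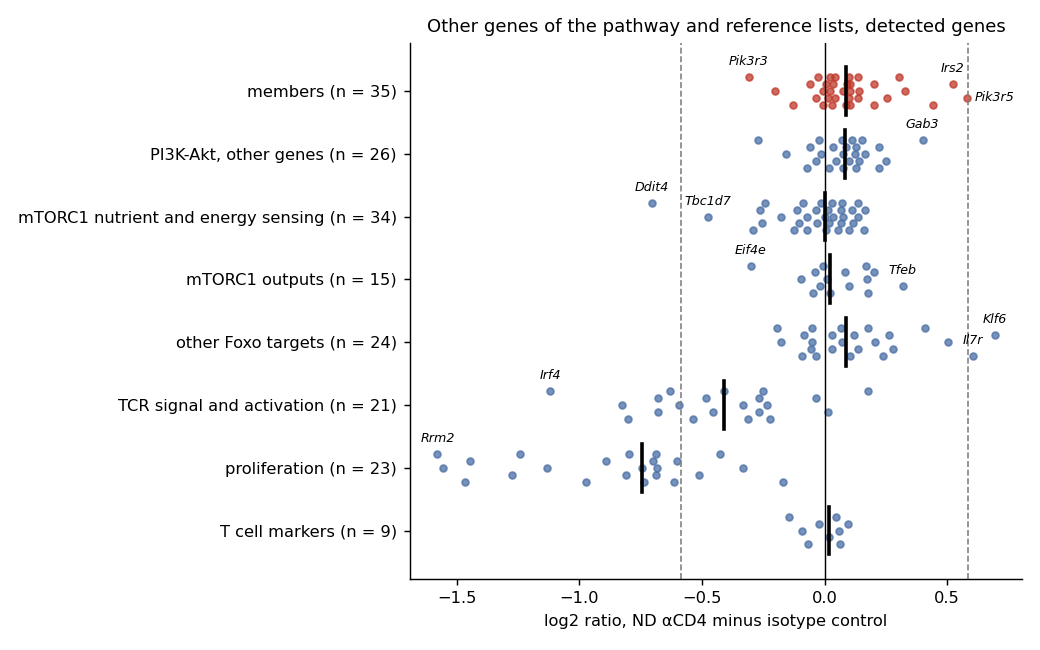
Detected genes of 8 lists (rows) by log2 ratio (horizontal axis). Points are genes, stacked only for legibility, black bars are medians and dashed lines are 1.5-fold. The members have their median at 0.09, the proliferation list at -0.74 and the TCR signal list at -0.41.

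Other groups of genes moved between these arrays at the same time. All 23 detected proliferation genes lay below 0 after ND αCD4 (median -0.74), 19 of them past 1.5-fold. Of these 19, *Bub1* (8.28 and 6.83) and *Birc5* (8.12 and 7.51) exceeded background only in the isotype control array. Of 21 genes of TCR signal and activation, 7 were at least 1.5-fold lower (median -0.41). Stress and handling genes were above 0 in 10 of 13 (median 0.23), with 2 at least 1.5-fold higher and 1 lower. Of all detected genes, 46.7% lay above 0 and 52.7% below 0. At 1.5-fold, 0.212% of all detected genes were higher and 1.01% lower. All 9 measured T cell markers exceeded background, with log2 ratios from -0.14 to 0.09, among them *Cd3e* (13.76 and 13.78) and *Cd4* (13.38 and 13.48). Both CD8 T cell markers were higher, and their summed signal went from 11.76 to 12.28 on the log2 scale (*Cd8a* at 9.67 and 10.39, *Cd8b1* at 11.38 and 11.83). Summed signals of the other marker lists differed by less, from 11.14 to 11.24 for B cells (5 of 6 measured genes above background, *Cd79b* the highest), 11.90 to 11.73 for NK cells (2 of 6, *Eomes* the highest at 11.72 and 11.41) and 10.66 to 10.77 for macrophages and monocytes (4 of 7, *Cd68* the highest). By log2 ratio, 5 of the 6 NK markers lay above 0, and only *Eomes*, which makes up most of their sum, lay below 0 (-0.31). *Klrd1* exceeded background only after ND αCD4 (7.34 and 8.19), and *Klrb1c* and *Ncr1* exceeded it in neither array. The red blood cell list had 1 measured gene, *Alas2*, at 7.46 and 7.74. The dendritic sum went from 10.06 to 10.04 (2 of 6 genes above background) and the neutrophil sum from 9.74 to 9.75 (3 of 6). The stromal sum went from 12.46 to 12.50 (6 of 6, *Pecam1* the highest at 11.87 and 11.97). By log2 ratio, 3 stromal genes lay above 0 and 3 below 0. The part of cycling cells, stress or CD8 T cells in the values of *Pik3r5*, *Irs2*, *Tob1* and the other members was not tested.

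The values changed little with the scaling of the arrays. The log2 ratio of a member moved by at most 0.035 over 8 other settings, and no member past 1.2-fold changed sign. Only the 3 other scalings could change the ratio of a detected member other than *Akt2*. The floor and the filters could not, as all detected members exceeded background in both arrays. The choice of probe set could change *Akt2* alone, the only member with 2 probe sets. *Pik3r5* lay at the larger limit and passed 1.5-fold under each of the 3 other scalings, with a highest value of 0.62. It stayed at 0.58 in the remaining settings, which could not change it. *Gadd45a* lay at the smaller limit and passed it under centring only, with 0.29. The genes whose sign changed in at least 1 setting were *Akt1*, *Akt2*, *Mlst8*, *Inpp4b* and *Pik3r4*, all within 0.034 of 0 as deposited.

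**Figure D5:**
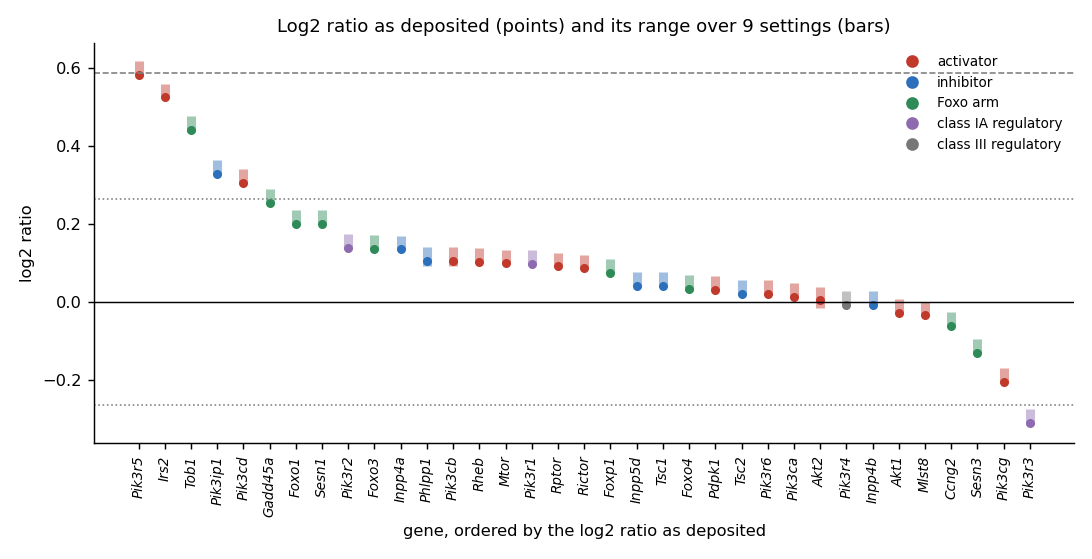
Log2 ratio of each detected gene as deposited (points) and its range over 9 settings of scaling, filter and probe set choice (bars), coloured by class, with 1.2-fold as dotted and 1.5-fold as a dashed line. Apart from Akt2, the bars arise from the 3 other scalings alone. These bars are short beside the distances between the outermost genes, and that of Pik3r5 reaches across the 1.5-fold line to 0.62.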

How the data were processed

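The authors deposited 1 log2 value per probe set for each of 2 arrays. Affymetrix Expression Console is listed in the notes of the submitters, but how it corrected and normalized the signal was not given in the sources used here. Their log2 scale was inferred from their range (2.52 to 14.7) and equal medians (8.15). The methods name a later version of the array than the probe set identifiers show.

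Probe sets were named through the platform annotation (21789 with 1 symbol, used, and 1621 with several and 12147 with none, left out), and the highest mean was kept per gene. The 36 measured members matched RefSeq by identifier and symbol. Background came from 1210 olfactory and vomeronasal receptor probe sets. No test was run. Members, classes and lists were chosen with earlier results of these data known. All members are named, with up to 4 detected genes of the largest log2 ratio per pathway list and up to 2 of the highest level per marker list. *Klrb1c*, *Ncr1*, *Bub1* and *Birc5* were chosen after their values were seen. Alternatives were 3 other scalings (centring, quantile, and lowess with fraction 0.3 and 3 iterations), a floor at background, 2 other filters, 2 other choices of probe set, other classes and, added after the data were seen, leaving out 6 members with known values. Scripts were tested on simulated data. Software was matplotlib 3.10.9, statsmodels 0.14.6, pandas 2.3.3 and numpy 2.4.6 in Python 3.11.15.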

Additional observations from a re-analysis of the deposited data

How the results depend on the processing

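Medians were taken to move when they shifted beyond the spread of log2 ratios within a gene (SD 0.0929, from 550 genes with 2 detected probe sets) divided by the square root of the number of genes. This does not cover differences between mice. The number of members at least 1.5-fold higher was 1 (*Pik3r5*) in place of 0 under centring, lowess and quantile normalization. The other counts past either limit stayed within 1.5 times under these scalings. Under the floor, filters and probe set choices no count changed, since these leave the ratios of all detected members but *Akt2* as they are. Centring raised the activator median to 0.12 and the Foxo arm median to 0.17. Leaving out *Irs2* lowered the activator median to 0.059, and adding *Irs2* and *Pik3ip1* to the Foxo arm raised its median to 0.20. Without the 6 members whose values were known, an alternative chosen after seeing the data, 1 member was at least 1.2-fold higher, the activator median was 0.032, the Foxo arm median 0.055 and the inhibitor minus activator median 0.0105. Under the other alternatives the last ran from -0.05 to -0.02. No paired analysis was possible because each condition has 1 array, and for the same reason no array could be left out.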
